A study of Drosophila melanogaster with 8 samples.

Results

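The innexins are the proteins that build gap junctions in insects, and 6 innexin genes (ogre, Inx2, Inx3, Inx7, shakB and zpg) were followed here among the 17559 genes of an RNA immunoprecipitation study. The 6 were chosen as a family after ogre had been seen to have reads in the immunoprecipitate (IP) of Sister-of-Sex-lethal (SSX) and none in the control IP, so the SSX and control values of ogre are a description and carry no test. The members were therefore selected on the SSX and GFP reads of ogre and otherwise by gene family. They are 6 of 8 annotated innexins, since no identifier of Inx5 or Inx6 could be tied to its name in the tables used here.

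RNA bound to tagged proteins was sequenced from transfected SL2 cells, an embryonic line of male origin from Drosophila melanogaster. The cells of each group carried a FLAG-3xHA tag on Sex-lethal (SXL, 2 libraries), on its paralogue SSX (3 libraries) or on green fluorescent protein (GFP, 2 libraries, the background control), and the same anti-FLAG M2 antibody was used throughout. The promoter of the constructs and any clone or pool are not given in the labels, and no label names separate cultures for the replicates, whose spread may therefore be technical. The input library was not analysed here, so the level of each innexin RNA in the cells was not set beside its recovery, and binding and abundance cannot be told apart. Of 10 hemocyte markers chosen for this cell line, srp was the only gene with counts per library; the other marker genes carried no name here.

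Innexin subunits assemble into channels that dock between neighbouring cells and let ions and small molecules pass. Some members pair with each other, such as Inx2 with Inx3 in epithelia, and some serve one tissue, such as shakB at electrical synapses of the nervous system and zpg between germ cells and the somatic cells of the gonad. SXL is an RNA-binding protein that recognises uridine-rich stretches and controls splicing and translation in females, and SSX carries related RNA-binding domains.

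Of the 6 genes, 4 lie on the X chromosome, and 3 of these form a cluster. In Release 6 (BDGP6) coordinates ogre (FBgn0004646) spans X, 6973620 to 6991318, on the minus strand. Inx7 (FBgn0027106) spans X, 6991612 to 6993612, starting 293 bases past the end of ogre. Inx2 (FBgn0027108) spans X, 6998672 to 7004151, a further 5059 bases on, so the 3 genes occupy 30.5 kb. The fourth X-linked member, shakB (FBgn0085387), is a long gene at X, 20761071 to 20927050. Inx3 (FBgn0265274) lies at 3R, 28853606 to 28859497, and zpg (FBgn0024177) at 3L, 6604366 to 6606032. Gene spans overlap for 4 members: ogre contains bou and a noncoding RNA gene, shakB contains 6 annotated genes, Inx3 lies inside spg, and zpg lies inside Rexo5. Whether counting used the strand is not given in the sources used here, so reads of these overlapping genes cannot be told apart with certainty.

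Reads per library were deposited for ogre alone, which is in the authors' list of genes enriched with SSX. For the other 5 genes the whole reads of each library were recovered from the deposited mean normalised count, a sum of reads divided by 7 size factors solved from the listed genes that is given to 15 significant digits. Each of the 5 genes had 1 combination of whole reads that gave its mean. The procedure was run on the 15 listed genes with a mean normalised count of at most 30. The deposited reads were among the solutions for 15 of 15, and 13 of 15 had that solution alone. These genes had also been used to solve the size factors, so the first result was largely fixed and only the second is informative. CG14490 and CG13924, with means of 26.7 and 28.6, had 2 solutions each. The means of Inx2 and Inx3 were 22.5 and 25.8. Normalised counts are reads divided by the size factor of the library, with 1 read worth 0.278 to 0.535 in the SXL and SSX libraries, 11.3 in GFP library 2 and 8.30 in GFP library 3. Libraries are named by column number. The GFP libraries held 20859 and 27467 reads over the 956 genes with deposited counts, against 3266209 to 4429899 in the other libraries.

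The clearest innexin RNA in these precipitates was ogre, whose product (innexin 1) is needed for growth of the optic lobes and acts in glia. Its normalised counts were higher with SSX than with SXL. Recovery of ogre above background carries no test here, since its GFP reads entered the choice. Reads of ogre were 146 and 195 with SXL, 360, 386 and 365 with SSX, and 0 in each GFP library. As normalised counts the SXL libraries stood at 43.8 and 54.2, and the SSX libraries at 168, 199 and 195. The groups did not overlap: every SSX library was above every SXL library, and every SXL library was above GFP. The first held for 94.6% of the 956 genes with deposited counts, and the 0 GFP reads entered the choice of ogre. The mean was 49.0 ± 7.36 (SD, n = 2) with SXL and 187 ± 17.0 (SD, n = 3) with SSX.

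At the GFP depth, the SXL level of ogre would give 10.3 reads over both GFP libraries and the SSX level 39.1 reads, where 0 were seen. Against a floor of 3 reads over the GFP group, ogre was at least 3.42-fold higher with SXL and at least 13.0-fold higher with SSX. These bounds cover counting error only, not the choice of ogre on those 0 GFP reads. The expected reads and the bounds are thus a description and carry no test. In the authors' deposited table the log2 fold change of ogre was 2.99 with SXL (SE 0.95) and 4.91 with SSX (SE 0.95). A fitted value against 0 reads depends on how the fit treats zeros, and both standard errors are close to 1 on the log2 scale. SXL over SSX, ogre stood at -1.92 (SE 0.25) on the log2 scale in the authors' deposited table, a smaller error because both sides hold many reads (341 and 1111). This difference shares the SSX libraries that entered the choice of ogre and is a description.

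**Figure D1:**
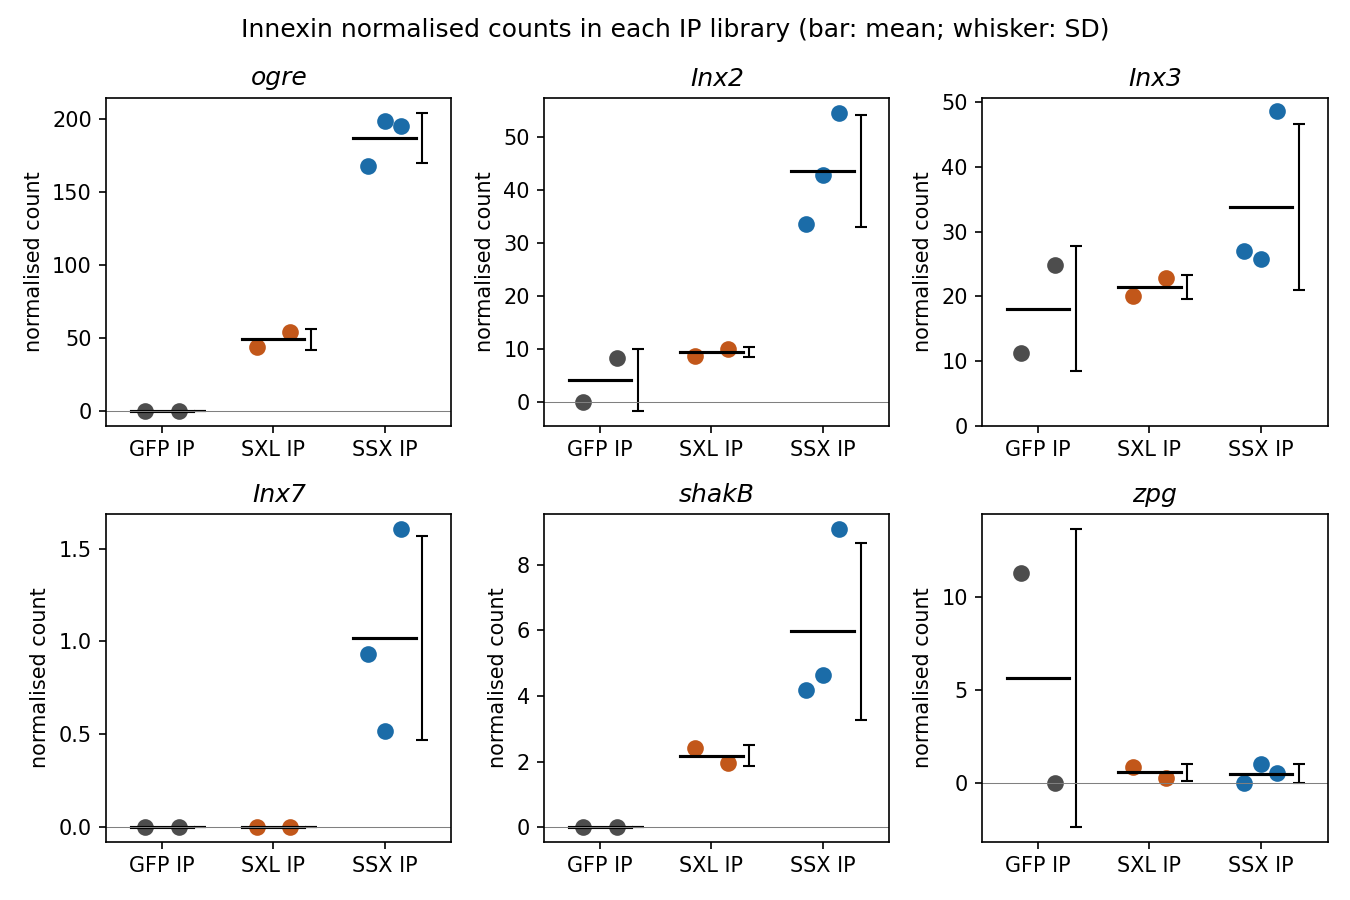
Normalised counts (y axis, reads divided by the library's size factor, a separate linear scale for each gene) of the 6 innexins in each library, with GFP, SXL and SSX IP on the x axis; points are libraries, bars group means and whiskers SDs. For ogre the SSX libraries lie at 168 to 199, the SXL libraries at 43.8 and 54.2 and both GFP libraries at 0, while zpg has its highest point from 1 read in GFP library 2.

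Inx2, a widely used epithelial innexin, followed ogre in direction at a lower level. Reads of Inx2 were 29 and 36 in the SXL libraries, 72, 83 and 102 in the SSX libraries, and 0 and 1 in the GFP libraries. Its normalised counts were 8.71 and 10.01 with SXL, 33.5, 42.7 and 54.6 with SSX, and 0 and 8.30 with GFP. The SSX libraries were all above the SXL libraries. The same held for 94.6% of the 956 genes with deposited counts, which had mostly been selected for enrichment with SSX. The higher GFP library, with its single read, was just under the SXL values. The SXL mean was 9.36 ± 0.924 (SD, n = 2), the SSX mean 43.6 ± 10.5 (SD, n = 3) and the GFP mean 4.15 ± 5.87 (SD, n = 2).

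Inx2 was lower with SXL than with SSX: the authors' deposited table gave a log2 SXL over SSX of -2.16 (SE 0.43, adjusted p = 5.5e-06). With edgeR on the recovered reads its value was -2.21 with the authors' size factors and -0.94 (adjusted p = 0.049) with TMM scaling, which moved ogre from -1.93 to -0.68. The ratio of SXL to SSX from summed reads was 0.218 (exact 95% counting interval 0.163 to 0.287). Against GFP, the log2 fold change with SXL was 0.41 (SE 0.96, adjusted p = 0.795) in the authors' deposited table, so recovery of Inx2 above background was not detectable with SXL at this depth. Its ratio of SXL to GFP was 1.96 (exact 95% counting interval 0.340 to 78.7) on 1 GFP read. With SSX the deposited log2 fold change was 2.57 (SE 0.94) in the authors' deposited table and the ratio to GFP was 9.02 (exact 95% counting interval 1.60 to 357). The SSX level of Inx2 would have given 9.12 GFP reads and its SXL level 1.96, where 1 was seen.

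The authors' list of genes enriched with SSX holds genes past a log2 of 2 with an adjusted p below 0.001, and it separates ogre from Inx2. In the authors' deposited table Inx2 passed the fold with 2.57 but not the adjusted p limit, with 0.017, while ogre (4.91) passed both. Since ogre was chosen on its SSX and GFP reads, its place in this list is a description and carries no test. So 1 of the 6 innexins was in the SSX list, which held 5.39% of all genes and 10.5% of those given an adjusted p. The SXL list held 0 of the 6 and 2.78% of the genes given an adjusted p. An adjusted p was given for 5 of the 6 with SSX and 3 with SXL.

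Inx3, the partner of Inx2 in epithelial channels, had the smallest differences among the members with more than 100 reads in all. Reads of Inx3 were 67 and 82 with SXL, 58, 50 and 91 with SSX, and 1 and 3 with GFP. Its normalised counts were 20.1 and 22.8 with SXL, 27.01, 25.7 and 48.7 with SSX, and 11.3 and 24.9 with GFP. The higher GFP library lay above both SXL libraries, and SSX library 3 stood apart from the other SSX libraries.

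The SXL mean of Inx3 was 21.5 ± 1.90 (SD, n = 2), its SSX mean 33.8 ± 12.9 (SD, n = 3) and its GFP mean 18.1 ± 9.63 (SD, n = 2). In the authors' deposited table its log2 fold change with SXL was 0.13 (SE 0.75, adjusted p = 0.926), and with SSX it was 0.76 (SE 0.73). The authors' deposited table gave it a log2 SXL over SSX of -0.63 (SE 0.44, adjusted p = 0.256). The counting interval of the SXL to SSX ratio, 0.644 (exact 95% interval 0.518 to 0.801), is narrower than the spread between libraries, and the difference did not pass the test. With edgeR on the recovered reads (listed genes and innexins, scaled with the authors' size factors), the value was -0.65 (adjusted p = 0.060) with all libraries and -0.30 (adjusted p = 0.41) without SSX library 3. It was -0.79 (adjusted p = 0.049) without SSX library 1, -0.81 (adjusted p = 0.022) without SSX library 2 and -0.75 (adjusted p = 0.040) with column number as a block. TMM scaling turned it to 0.62 (adjusted p = 0.16).

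The neuronal member shakB and the remaining members had few reads. Reads of shakB were 8 and 7 with SXL, 9, 9 and 17 with SSX, and 0 and 0 with GFP. Its normalised counts were 2.40 and 1.95 with SXL and 4.19, 4.63 and 9.09 with SSX. Each SSX library was thus above each SXL library. So it was for 94.6% of the 956 genes with deposited counts, which had mostly been selected for enrichment with SSX. The mean was 2.17 ± 0.322 (SD, n = 2) with SXL and 5.97 ± 2.71 (SD, n = 3) with SSX, both under the GFP floor of 14.4 that 3 reads give. No fold against GFP can therefore be stated for shakB: its SSX level would have given 1.25 GFP reads. For shakB the authors' deposited table gave a log2 SXL over SSX of -1.28 (SE 0.85, adjusted p = 0.239), and the ratio from summed reads was 0.369 (exact 95% counting interval 0.187 to 0.693). The edgeR value on recovered reads was -1.42 (adjusted p = 0.038, over genes mostly selected for enrichment) and -1.0005 (adjusted p = 0.24) without SSX library 3. With TMM scaling it was -0.18 (adjusted p = 0.87).

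Inx7, which lies between ogre and Inx2, was almost unread despite its neighbours. It had 0 reads in both SXL and both GFP libraries and 2, 1 and 3 reads in the SSX libraries, or 0.931, 0.515 and 1.60 as normalised counts. The authors' deposited table left Inx7 out of the adjustment in every comparison (unadjusted p = 0.424 for SSX against GFP and 0.150 for SXL against SSX), and its SSX level would have given 0.213 GFP reads. The germline innexin zpg had 3 and 1 reads with SXL, 0, 2 and 1 with SSX, and 1 and 0 with GFP. Its GFP mean of 5.64 ± 7.98 (SD, n = 2) rests on that 1 read, and its ratios to GFP, 0.121 with SXL (exact 95% counting interval 0.0119 to 5.95) and 0.105 with SSX (exact 95% counting interval 0.00845 to 5.53), span both directions. The log2 SXL over SSX of zpg was 0.15 (SE 1.14, adjusted p = 0.937) in the authors' deposited table.

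**Figure D2:**
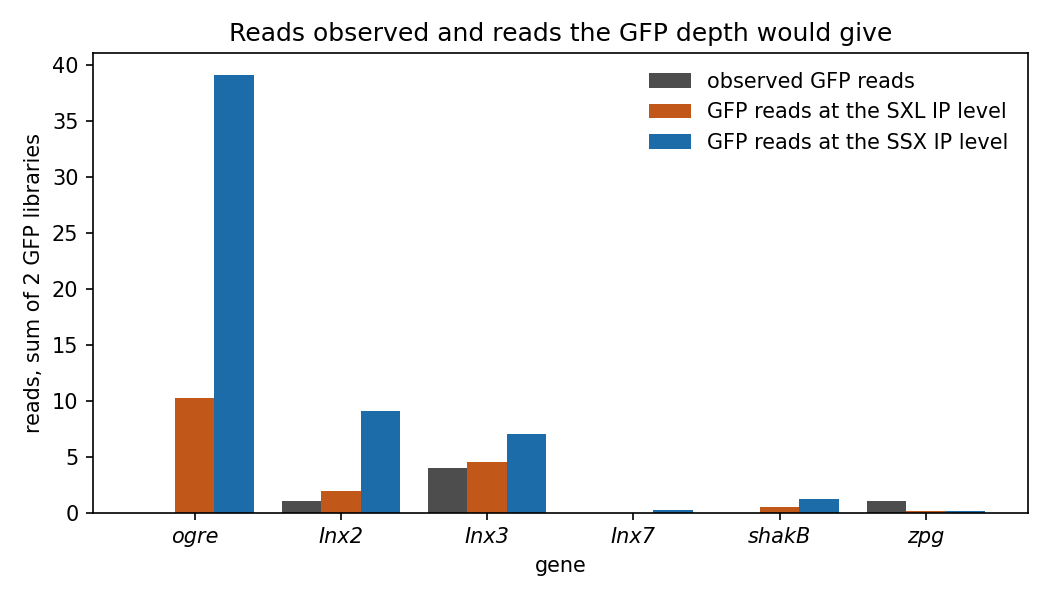
Reads summed over the 2 GFP libraries (y axis, linear from 0) for each innexin (x axis): grey bars are the reads observed, orange bars the reads expected at the gene's SXL level and blue bars those expected at its SSX level. The GFP depth gives 39.1 and 10.3 expected reads for ogre against 0 observed, and under 2 expected reads for Inx7, shakB and zpg. The 0 GFP reads of ogre entered its choice, so this contrast is a description.

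An adjusted p against GFP was given for more members with SSX than with SXL. Genes with an adjusted p are counted as tested. With SXL the authors' deposited table gave one for 3 of the 6 (ogre, Inx2 and Inx3), and 1 of these, ogre, was higher at an adjusted p under 0.05, where 16.4% of all tested genes were higher. With SSX it gave one for 5 of the 6, and 2, ogre and Inx2, were higher, where 26.2% of all tested genes were higher. The SSX comparison chose ogre and the SXL comparison shares its GFP libraries, so nothing is read from these counts. The median log2 fold change of the 6 members in the authors' deposited tables was 0.26 with SXL and 1.28 with SSX. Without ogre it was 0.13 and 0.87, beside 0 and 0.14 over all 12297 genes with a fold change. For Inx2, edgeR on the recovered reads gave a log2 SSX over GFP of 3.17 (adjusted p = 0.0046) with all libraries and 2.38 (adjusted p = 0.053) without GFP library 2. Without GFP library 3, which holds its only GFP read, the adjusted p was 0.015 and the fitted fold depends on how zeros are treated. With TMM scaling, which centres the listed genes, the value was 0.36 (adjusted p = 0.89).

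Between the proteins, Inx2 and ogre were lower with SXL than with SSX, and no member was called higher. An adjusted p was given for 5 of the 6 members in the authors' deposited table, and 2 of these were lower with SXL, where 25.9% of all 9500 tested genes were lower. Leaving out ogre, 1 of 4 was lower, a share close to that background, and nothing is read from the count. The fold was below 0 for 5 of 6 members, and for 60.8% of all 12297 genes with a fold change. The median log2 SXL over SSX in the authors' deposited table was -1.51 for the 6 members and -1.28 without ogre, beside -0.30 over all genes with a fold change. Every SSX library stood above every SXL library for 5 of the 6, with zpg the exception; of the 956 genes with deposited counts, which had mostly been selected for enrichment with SSX, 94.6% did so.

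SSX library 3 was the highest SSX library for 4 of the 6 members (Inx2, Inx3, Inx7 and shakB) and for 58.4% of the listed genes. Without it the edgeR log2 SXL over SSX was -2.01 for Inx2 and -1.90 for ogre, close to the -2.21 and -1.93 with all libraries.

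**Figure D3:**
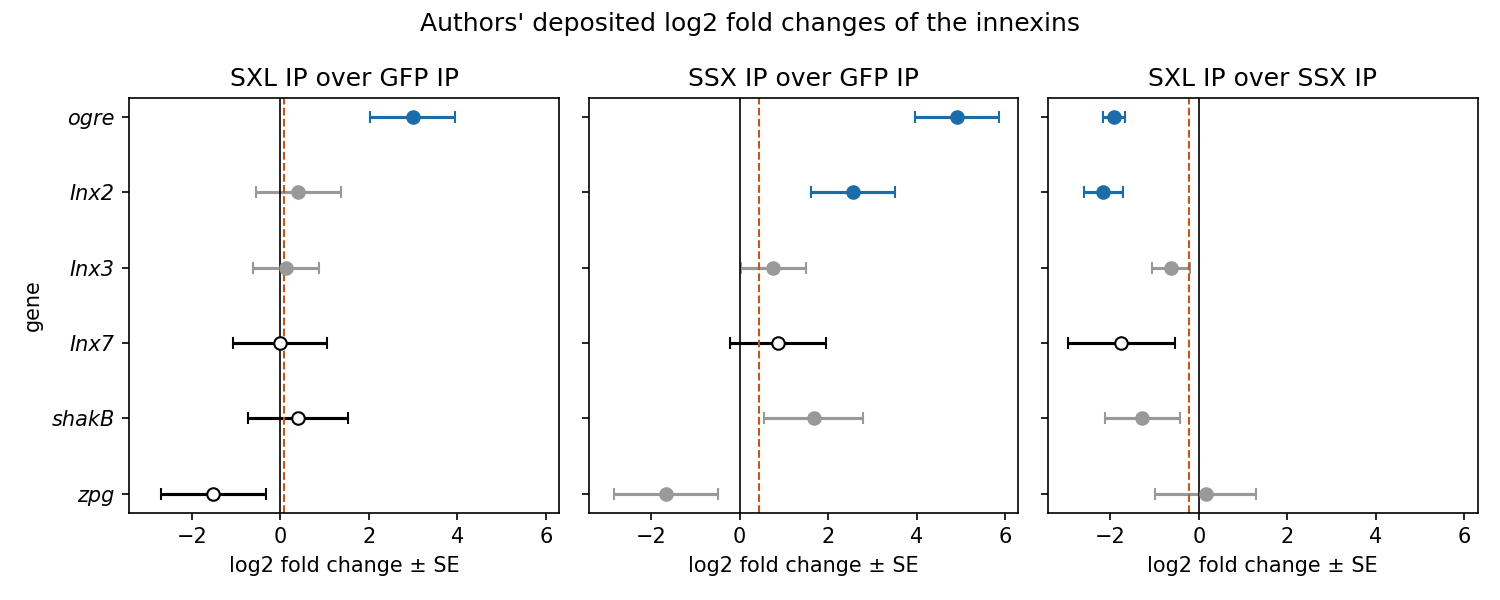
The authors' deposited log2 fold changes (x axis) of the 6 innexins (y axis) in the 3 comparisons, with whiskers for 1 SE; blue points had an adjusted p under 0.05, grey points did not, open points had none, and the dashed line is the median of all tested genes. In the SXL over SSX panel ogre (-1.92) and Inx2 (-2.16) lie left of the median of -0.23 with short whiskers, and zpg (0.15) has a whisker that crosses 0.

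**Figure D4:**
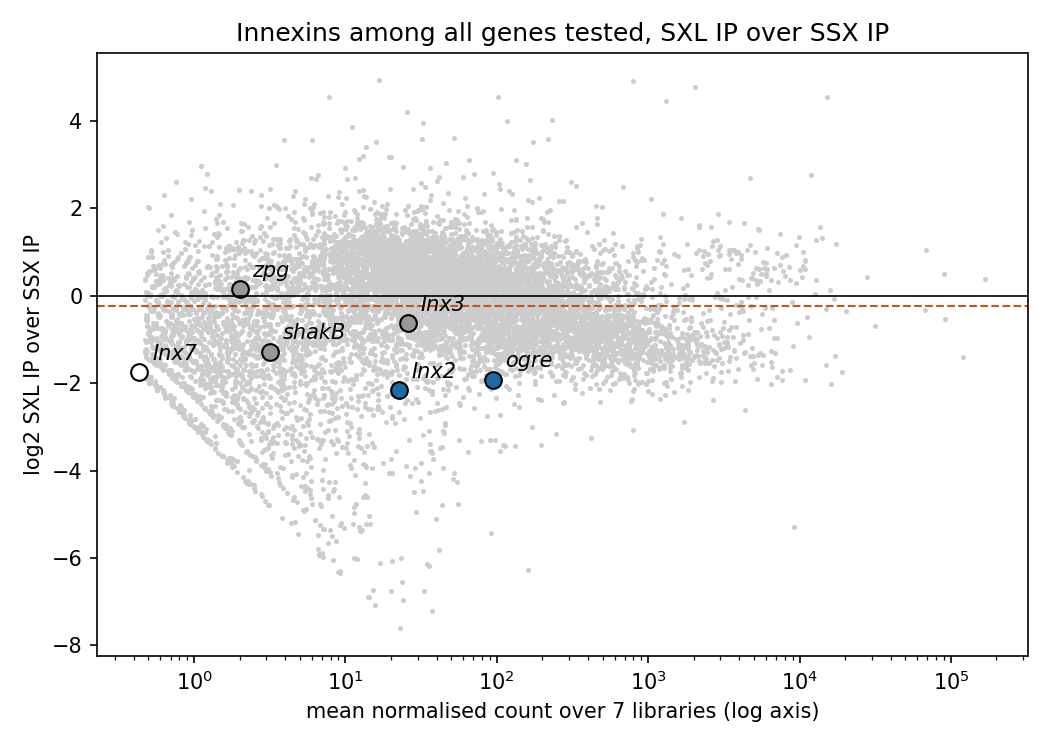
Mean normalised count over the 7 libraries (x axis, log scale) against the authors' deposited log2 SXL over SSX (y axis) for all 9500 tested genes (grey) and the innexins (large points; blue called, grey not called, white without an adjusted p); the dashed line is the median of tested genes. Inx2 and ogre lie at -2.16 and -1.92 in the lower part of the cloud, and Inx7, with a mean normalised count of 0.436, lies at its low-count edge.

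The genes nearest to ogre in profile depended on the pseudocount. By Euclidean distance between log2(normalised count + 1) profiles, each centred on its own mean, the 5 closest of the 956 genes with deposited counts were CG42360 (distance 0.974), vn (1.06), CG17724 (1.16), snk (1.25) and mei-W68 (1.39). The gene vn encodes a secreted ligand of the EGF receptor, snk a serine protease of the dorsoventral cascade, and mei-W68 the Spo11 homologue that starts meiotic recombination. All 5 had 0 GFP reads, which the measure favours because the GFP libraries enter it; 45 genes with deposited counts had none. Among these 45, ogre ranked 4 by its SSX mean and 5 by its SXL mean. The means of vn were 35.5 with SXL and 99.8 with SSX, and those of CG42360 were 87.0 and 196. The 5 closest had log2 SXL over SSX of -0.998 to -1.48 in the authors' deposited table, all nearer 0 than ogre at -1.92. None of these 5 is one of the other innexins, which had no deposited counts to be ranked. With a pseudocount of 5 in place of 1, 1 of the 5, CG42360, remained among the closest.

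Of other cell junction genes, those in the authors' lists can be described here, since counts were deposited for listed genes only. Septate junctions seal epithelia and glia, and 5 of 23 annotated genes of that list had deposited counts; all 5 were in the authors' SSX list, which held 5.39% of all genes, and 2 were in the SXL list. Because counts came with the lists, 5 of 5 was nearly fixed, and no difference from the innexins was tested. In the authors' deposited table the claudin family gene sinu stood 2.77 (SE 0.44) above GFP with SXL and 3.82 (SE 0.43) with SSX on the log2 scale. The neuroglian gene Nrg, a cell adhesion molecule, had 3.17 (SE 0.74) and 4.18 (SE 0.73) on 2 GFP reads, and the scaffold gene dlg1 1.41 (SE 0.31) and then 2.93 (SE 0.29), in the authors' deposited table. All 5 were lower with SXL than with SSX at an adjusted p under 0.05, where 25.9% of all tested genes were lower. Their median log2 was -1.05, beside -1.23 over the 956 genes with deposited counts. These had mostly been selected for enrichment with SSX, so nothing is read from the count.

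Adherens junctions join epithelial cells through cadherins, and 5 of 13 annotated genes of that list, which includes apical polarity genes, had deposited counts, all 5 in the SSX list and 1 in the SXL list. The polarity genes par-6 (2.83 with SXL, SE 0.34, and 3.14 with SSX, SE 0.33), baz (1.75, SE 0.33, and 2.91, SE 0.32) and aPKC (1.66, SE 0.36, and 2.48, SE 0.35) had the lowest adjusted p with SXL in the authors' deposited table. Of the 5, 4 were lower with SXL than with SSX, where 25.9% of all tested genes were lower. The gene par-6 had a log2 of -0.31 (adjusted p = 0.182) in the authors' deposited table. Genes of these lists without deposited counts carried no name here, so their values are not given, and the direction of listed genes was fixed by how the authors' lists were made. Over the 956 genes with deposited counts the SXL over SSX median was -1.23 on the log2 scale in the authors' deposited table.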

How the data were processed

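Per the labels' protocols, precipitated RNA was depleted of ribosomal RNA and sequenced from stranded low-input libraries. The submitters' processing notes name TopHat2, Trimmomatic, featureCounts, DESeq2, DESeq and BDGP6; versions, roles and strand use in counting are not given in the sources used here. The authors deposited 3 full tables of 17559 genes, which per the file headers hold a mean normalised signal, a log2 fold change with its standard error, a test score and p-values before and after adjustment, and 2 lists that add read counts per library for 956 genes. Genes counted as tested are those with an adjusted p; others were left out of the adjustment, some with a p-value.

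The results are the authors' deposited values. Size factors were solved by weighted least squares from the deposited counts and means of the 956 genes; 14 other per-library columns were not used. Reads of the 5 unlisted innexins were solved from 7 times the deposited mean as the sum of whole reads over size factors. edgeR 4.0.16 (quasi-likelihood, R 4.3.3, Benjamini-Hochberg) and DESeq2 1.42.0 on the 956 genes, with and without the 5 innexins, were alternatives only, since those genes were selected on the outcome. On simulated counts for 961 genes edgeR recovered 99% of genes given a log2 change of 2 in each comparison. For a change of 1 it recovered 76% (SXL with GFP), 70% (SSX with GFP) and 89% (between the proteins). The counts were drawn around each gene's mean over all libraries, with a common spread for all genes. These shares therefore do not give the recovery for innexins with few GFP reads. Intervals and floors cover counting error only. Python 3.11.15 with scipy 1.17.1, numpy 2.4.6, pandas 2.3.3 and matplotlib 3.10.9 was used.

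The names of the 5 unlisted innexins came with the choice of genes, not from the deposited tables. Positions are those of RefSeq (Release 6 plus ISO1 MT); of 799 listed genes matched by symbol, 787 had the same start and end in both. The SXL and GFP columns carry other numbers than the titles, so they were used as members of their group. The members and lists were chosen with earlier results of these data known. Named genes are every member, the 5 nearest to ogre in profile, and up to 3 listed genes per junction list with the lowest adjusted p for SXL against GFP. Marker lists of neurons, germ line, glia and muscle were also set, of which elav, osk and Phf7, moody, and Mef2 had deposited counts. No protein or transcript sequence was at hand, so the planned protein comparison was not run.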

Additional observations from a re-analysis of the deposited data

How the results depend on the processing

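The call of ogre against Inx2 and the rest rested on few GFP reads, which limit every comparison with GFP. For SXL against GFP, 1 member was called, and 0 at an adjusted p under 0.001 or with TMM scaling; leaving out single libraries gave 1 to 1. For SSX against GFP, 2 were called, and 1 at an adjusted p under 0.01 or 0.001, at a mean normalised count of at least 50 or with TMM; leaving out single libraries gave 1 to 2, with 1 without GFP library 2. For SXL against SSX, 2 were called and 1 at a mean of at least 50; edgeR on recovered reads called 3 with all libraries and 2 to 5 when single libraries were left out, with 4 without SSX library 1 and 5 without SSX library 2. These edgeR calls are adjusted over genes mostly selected for enrichment. The share of all fitted genes called was not counted, so nothing is read from these counts. Without SSX library 2 they include Inx7 (edgeR adjusted p = 0.025), which had 0 SXL reads. Inx7 had no adjusted p in the authors' deposited table, so the count of 2 there did not cover it. No fit by replicate number of the labels could be made, since the SXL and GFP columns do not carry them. A replicate block by column number gave 1, 2 and 4 members. Correlations between the deviations of same-numbered columns were low, at -0.03 to 0.20. The SXL and GFP pairs gave the same value (-0.03) for columns 2 and 3, since each of these groups holds 2 libraries. TMM over listed genes centres the selected genes. It moved the called SXL over SSX values of Inx2 and ogre to -0.94 and -0.68 and turned values that had not been called: Inx2 (-0.58) and Inx3 (-1.38) for SXL against GFP, Inx3 for SSX against GFP (-2.0003) and for SXL against SSX (0.62). Without GFP library 2, Inx3 turned to -0.21 for SXL against GFP and zpg to 3.28 for SSX against GFP. The SXL over SSX value of zpg turned to -0.37 with the block, -0.40 without SSX library 1 and -0.71 without SXL library 2. The log2 ratio of ogre means, SXL over SSX, was -1.93, and -0.92 with equal totals over the listed genes. The cause of these changes was not tested.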

Other observations

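The innexin cluster on the X chromosome lies 70.4 kb from Sxl, the gene of the SXL bait. RefSeq annotates 9 genes between Inx2 and Sxl, and 0 of these were in the authors' lists of enriched genes. The larger list, that of SSX, held 5.39% of all genes, so nothing is read from this count.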
